A study of Mus musculus with 14 samples.

Results

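Il2ra encodes CD25, the alpha chain of the interleukin-2 receptor. The 14 thymic lymphomas of the study were chosen by their Il2ra level into 2 sides, with 5 Il2ra-expressing tumours and 9 Il2ra-silent tumours of the 14 in all. The dividing line was a log2 signal of 4.41 at the Il2ra probe set of highest mean, which is the minimum between the low and the high mode of all values on the arrays. Levels at or below it are called background here. The sides are an observed property of the tumours and not a treatment, so each difference below is an association.

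CD25 is made by early thymocytes at the stages before and during T cell receptor beta rearrangement, under control of Notch and of STAT5, and is then switched off as cells turn on CD4 and CD8 together. It returns on activated T cells and stays on regulatory T cells. Together with the beta chain (Il2rb) and the common gamma chain it forms the receptor of highest affinity for interleukin-2.

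All mice carried the p53R270H mutation on both alleles on a mixed background of C57BL/6 and 129/SvEvTac, and each gave 1 tumour and 1 Affymetrix array of total RNA. The Il2ra-expressing side held 1 HIF1a+/- tumour and 4 HIF1a+/+ tumours, and the Il2ra-silent side held 4 HIF1a+/-, 4 HIF1aKI/+ and 1 HIF1a+/+ tumour. The labels do not say what the KI allele carries, and they describe the tumours as separate biological samples. Mice were kept until breathing became distressed and the tumour was stored in RNAlater, so the tumours were whole tissue and hold every cell type of the mass. In such RNA, fewer cells of a type and less RNA per cell cannot be told apart.

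By genotype, 1 of 5 HIF1a+/- tumours, 0 of 4 HIF1aKI/+ tumours and 4 of 5 HIF1a+/+ tumours were Il2ra-expressing. HIF1aKI/+ was found on the silent side alone, and each of the other genotypes had a single tumour on one of the sides. The uneven spread means that a side difference and a genotype difference can be told apart only through HIF1a+/- tumour 1 and HIF1a+/+ tumour 5, and values with genotype in the model are therefore given for the genes and lists below where they bear on the result.

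The Il2ra level was 6.29 in HIF1a+/- tumour 1, and 6.90, 8.26, 11.42 and 9.93 in HIF1a+/+ tumours 1, 2, 3 and 4, against a range of 2.12 to 3.25 in the silent tumours. The lowest expressing tumour and the highest silent tumour, HIF1a+/- tumour 4, lay well apart on both sides of the line. The other Il2ra probe set read 2.09 in HIF1a+/- tumour 1, and 2.89, 3.85, 9.11 and 7.95 in HIF1a+/+ tumours 1, 2, 3 and 4. At that probe set 2 of 5 expressing tumours and 0 of 9 silent tumours lay above background, and the highest silent value was 2.11. HIF1a+/- tumour 1 lay within the silent range there, so its side rests on 1 probe set. These values set the sides and are a description with no test.

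**Figure D1:**
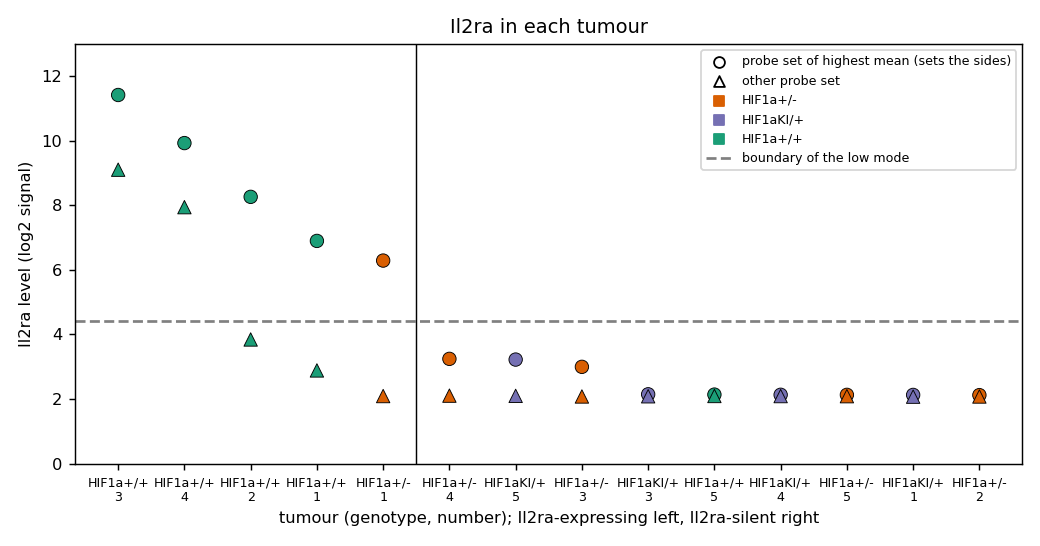
Log2 signal of both Il2ra probe sets in each tumour, Il2ra-expressing tumours left and Il2ra-silent tumours right, coloured by HIF1a genotype. Circles (the probe set that set the sides) run from 6.29 to 11.42 in the expressing tumours and from 2.12 to 3.25 in the silent tumours, and triangles (the other probe set) pass the dashed boundary in HIF1a+/+ tumours 3 and 4 alone.

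The start regions of Il2ra, Mien1 and Rag2 are shown next, from 250 bases before to 50 bases after the start of each gene (RefSeq, GRCm38.p6). No start region was available for Pde7a or Cd8b1, which also passed the threshold. Il2ra is shown because it defines the sides, Mien1 because it passed the threshold, and Rag2 because its levels did not overlap in the opposite direction from Il2ra. Capitals mark matches on either strand to a kB motif (GGGA and CC with any 4 bases between them), which was added after the Il2ra window was seen, or to an E-box (CAGCTG).
Il2ra, chr2:11642542-11642841, plus strand: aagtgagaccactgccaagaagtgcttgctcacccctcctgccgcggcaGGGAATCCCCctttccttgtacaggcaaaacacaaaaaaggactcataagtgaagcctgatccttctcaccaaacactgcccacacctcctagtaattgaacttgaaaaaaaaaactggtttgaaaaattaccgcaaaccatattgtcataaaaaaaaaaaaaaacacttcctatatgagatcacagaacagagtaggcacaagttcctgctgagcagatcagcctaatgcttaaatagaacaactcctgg
Mien1, chr11:98438939-98439238, minus strand: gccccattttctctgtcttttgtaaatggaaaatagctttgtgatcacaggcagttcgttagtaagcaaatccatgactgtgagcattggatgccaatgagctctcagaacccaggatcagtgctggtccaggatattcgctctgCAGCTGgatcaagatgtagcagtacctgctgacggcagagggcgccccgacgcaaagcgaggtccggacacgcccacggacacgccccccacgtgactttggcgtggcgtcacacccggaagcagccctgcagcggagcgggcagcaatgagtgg
Rag2, chr2:101624462-101624761, plus strand: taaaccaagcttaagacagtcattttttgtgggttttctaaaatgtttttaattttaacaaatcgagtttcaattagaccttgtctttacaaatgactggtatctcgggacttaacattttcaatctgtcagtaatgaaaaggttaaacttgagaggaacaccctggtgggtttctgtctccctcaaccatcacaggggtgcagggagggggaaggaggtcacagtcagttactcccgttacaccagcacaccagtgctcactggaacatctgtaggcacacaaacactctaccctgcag

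The Il2ra window held 1 match to the kB motif, and 20.8% of 32544 mouse start regions of the same length hold at least 1. The Mien1 window held 1 match to the E-box, which 16.4% of those regions hold. No window held the RUNX core TGTGGT (in 16.7% of regions), the CSL motif GTGGGAA (6.39%) or the STAT motif TTCNNNGAA (8.33%), and the Rag2 window held none of the 5 motifs. A match is a description of the letters, and a missing one says only that these letters are not in the window.

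The processed values were alike across the arrays, while the quality of the RNA and of the raw arrays was not examined. Over 10254 genes, pairs of arrays correlated at 0.941 to 0.974 (median 0.961 for pairs of the same side and 0.957 for pairs across sides), and array medians ran from 7.91 to 8.03. HIF1a+/- tumour 5, on the silent side, had the lowest median correlation with the others (0.951). T cell markers were high on both sides. Cd3e, a chain of the T cell receptor complex, was at 12.91 in HIF1a+/- tumour 1 and between 12.85 and 12.91 in the HIF1a+/+ tumours of the expressing side, against 12.05, 12.99 and 13.48 (lowest, median and highest) in the silent tumours. Thy1, a surface protein of thymocytes, averaged 14.15 ± 0.0913 in the expressing tumours (SD, n = 5) and 14.21 ± 0.145 in the silent tumours (SD, n = 9).

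Across all genes other than Il2ra the sides differed in few genes. In limma's moderated test with Benjamini-Hochberg adjustment, 3 of 10253 genes (0.0293%) passed an adjusted p of 0.05. Pde7a was higher in the expressing tumours, and Cd8b1 and Mien1 were lower. Unadjusted p-values below 0.05 were reached by 481 genes that were higher (4.69%) and by 562 that were lower (5.48%). Counts of list members under that p, given below, are to be read beside these shares. Of all genes 49.4% lay higher in the expressing tumours, and the median difference was -0.0003. With HIF1a genotype in the model 0 genes passed, the lowest adjusted p was 0.314, and 409 genes (higher) and 492 genes (lower) had an unadjusted p below 0.05. The number of arrays limits the precision throughout.

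The beta chain of the CD8 coreceptor was lower in the Il2ra-expressing tumours. Cd8b1, which pairs with the CD8 alpha chain on thymocytes that carry CD4 and CD8 and on cytotoxic T cells, was at 10.93 in HIF1a+/- tumour 1 and at 10.12, 10.95, 10.65 and 10.73 in HIF1a+/+ tumours 1, 2, 3 and 4, against 11.58, 11.68 and 12.28 (lowest, median and highest) in the silent tumours. Every expressing tumour lay below every silent tumour. The log2 difference was -1.14 ± 0.162 (SE), an expressing level 2.20-fold lower, with an adjusted p of 0.0447 in limma's test. Within HIF1a+/- the expressing tumour was at 10.93 against a mean of 11.87 in the 4 silent tumours, and within HIF1a+/+ the 4 expressing tumours averaged 10.61 against 11.62 in the silent tumour. The direction within each genotype was set by the lack of overlap, so these values are a description of size alone. With genotype in the model the difference was -0.97 ± 0.235 (unadjusted p = 0.00172, adjusted p = 0.35).

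Cd8a, the alpha chain, was at 13.72 in HIF1a+/- tumour 1 and at 13.5, 13.73, 13.9 and 13.51 in HIF1a+/+ tumours 1 to 4, against 13.67, 13.94 and 14.18 in the silent tumours. The sides overlapped, and the difference of -0.24 did not pass (adjusted p = 0.442 in limma's test). Its other probe set gave a difference of -0.74, with overlap as well. Cd4, the other coreceptor, was at 12.44 in HIF1a+/- tumour 1 and at 9.10, 10.17, 10.95 and 11.28 in HIF1a+/+ tumours 1 to 4, against 9.22, 10.85 and 12.86 in the silent tumours, and its spread on each side was far wider than the difference between them.

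Pde7a, a phosphodiesterase that breaks down cyclic AMP in T cells, was the gene called higher. It was at 4.37 in HIF1a+/- tumour 1 and at 5.25, 4.48, 4.86 and 6.35 in HIF1a+/+ tumours 1 to 4, against 2.13, 2.19 and 3.60 in the silent tumours. The sides did not overlap, but all silent tumours and HIF1a+/- tumour 1 were at background. The log2 difference was 2.66 ± 0.334 (SE), which is no measure of fold since the silent level is only a bound, with an adjusted p of 0.0273 in limma's test, and 2.56 with genotype in the model (unadjusted p = 0.000338). The result rests on 1 of 4 probe sets of the gene, since the other 3 were at background in all 14 tumours. With the mean of the probe sets the difference was 0.688.

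Mien1, a small membrane-associated protein first described for promoting cell migration, was at 11.22 in HIF1a+/- tumour 1 and at 11.47, 11.4, 11.43 and 11.15 in HIF1a+/+ tumours 1 to 4, against 11.63, 11.93 and 12.22 in the silent tumours. The sides did not overlap. The difference was -0.60 ± 0.0882 (SE), an expressing level 1.52-fold lower, with an adjusted p of 0.0447 in limma's test and -0.68 with genotype in the model (unadjusted p = 0.000311). Mien1 is named because it was called, after its values were seen, as its difference is under the log2 size of 1 used to name genes. Leaving out 1 tumour at a time kept Pde7a past the threshold in 6 of 14 fits, Cd8b1 in 1 and Mien1 in 2, with adjusted p up to 0.087, 0.131 and 0.131 for Pde7a, Cd8b1 and Mien1.

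**Figure D2:**
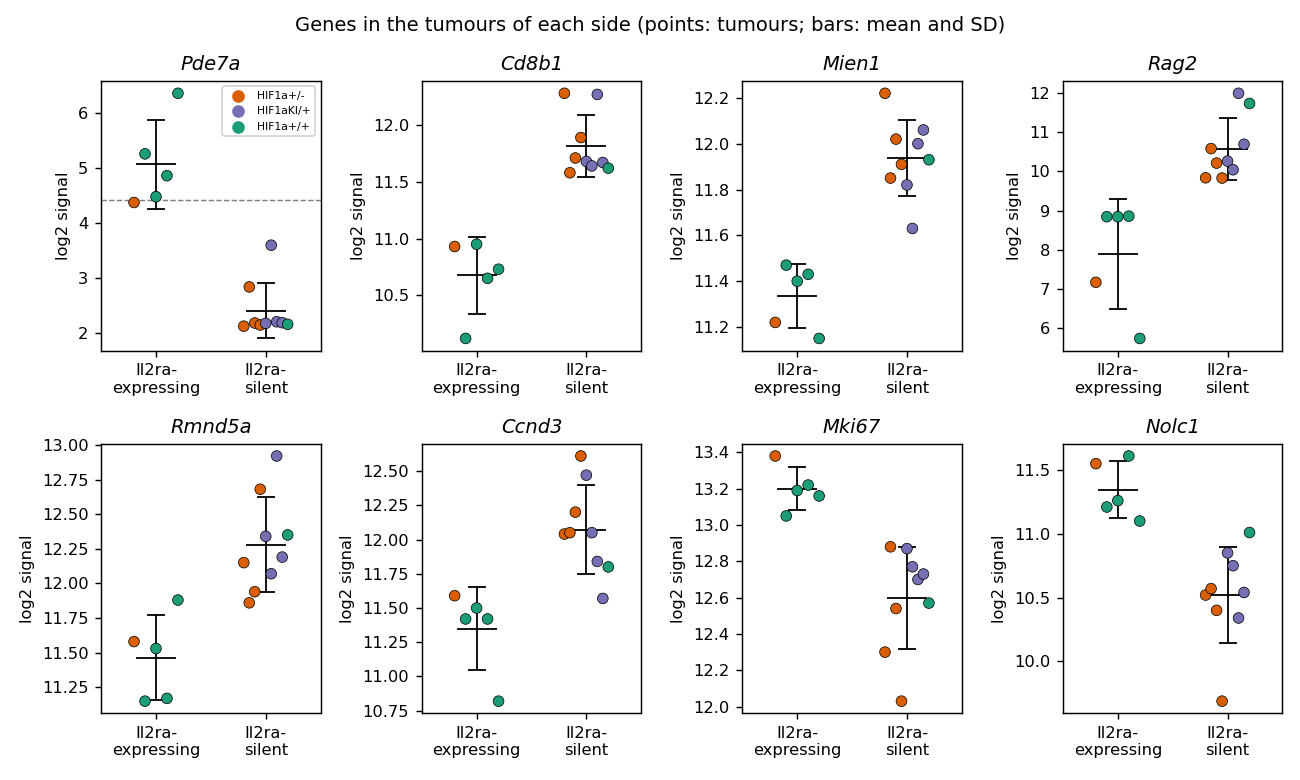
Log2 signal of 8 genes, with 1 point per tumour coloured by HIF1a genotype, Il2ra-expressing tumours left and Il2ra-silent tumours right, and the mean with SD as bars. The axes do not start at 0. Pde7a, Mki67 and Nolc1 lie higher and Cd8b1, Mien1 and Rag2 lower in every expressing tumour than in every silent one, while Rmnd5a and Ccnd3 overlap by a single tumour.

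Sides that did not overlap were found for 12 genes higher (0.117%) and 23 genes lower (0.224%) in the expressing tumours. Among them Rag2, which makes up the V(D)J recombinase with Rag1, was at 7.17 in HIF1a+/- tumour 1 and at 8.84, 8.84, 8.86 and 5.74 in HIF1a+/+ tumours 1 to 4, against 9.83, 10.26 and 11.99 in the silent tumours. HIF1a+/+ tumour 4 was the lowest by a wide margin. The log2 difference was -2.68 ± 0.561 (SE) and did not pass (adjusted p = 0.172 in limma's test), and with genotype in the model it was -3.30 (unadjusted p = 0.00131).

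Rag1 was at 12.71 in HIF1a+/- tumour 1 and at 12.06, 13.26, 13.05 and 12.31 in HIF1a+/+ tumours 1 to 4, against 12.51, 13.25 and 14.11 in the silent tumours, with overlap. Dntt, the template-free polymerase that adds bases at V(D)J junctions, was at 13.58 in HIF1a+/- tumour 1 and at 12.82, 13.91, 13.27 and 10.28 in HIF1a+/+ tumours 1 to 4, against 13.3, 13.85 and 14.07 in the silent tumours. HIF1a+/+ tumours 1, 3 and 4 lay below every silent tumour, tumour 4 by far the most, and the other 2 expressing tumours lay within the silent range. Ptcra, the surrogate alpha chain that pairs with a new beta chain, was at 9.78 in HIF1a+/- tumour 1 and at 12.32, 12.34, 13.19 and 11.64 in HIF1a+/+ tumours 1 to 4, against 8.61, 12.45 and 13.16 in the silent tumours, so the sides covered the same range.

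Most genes of the stage at which thymocytes carry CD4 and CD8 together lay lower in the expressing tumours. Of 18 measured genes of that list, out of 22, 16 had a lower mean and 2 a higher mean, with a median difference of -0.53 against -0.0003 over all genes. At an unadjusted p under 0.05, 6 lay lower and 0 higher, against shares over all genes of 5.48% and 4.69%. Cd8b1 alone passed the adjusted threshold. The mean level of the list was 9.66 to 10.48 in the expressing tumours and 10.49 to 11.23 in the silent tumours, which touch without overlapping. The median was -0.43 with genotype in the model, with 15 lower and 3 higher. Without 1 tumour the median ran from -0.68 to -0.37, and 4 members lay lower at an unadjusted p under 0.05 without HIF1a+/- tumour 5, HIF1aKI/+ tumour 4 or HIF1a+/+ tumour 1.

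Beside Cd8b1, Rag2 and Cd8a, the members of smallest p were Rmnd5a, Bcl2l1 and Bcl6. Rmnd5a, part of a ubiquitin ligase complex, averaged 11.46 ± 0.31 in the expressing tumours and 12.28 ± 0.343 in the silent tumours (SD, n = 5 and n = 9), with 1 expressing tumour, HIF1a+/+ tumour 4, just inside the silent range. Bcl2l1 encodes Bcl-xL, which keeps thymocytes of this stage alive, and averaged 5.98 ± 0.593 against 6.81 ± 0.439. Bcl6, a repressor, averaged 10.56 ± 0.764 against 11.35 ± 0.545. Their adjusted p were 0.216, 0.323 and 0.455 in limma's test for Rmnd5a, Bcl2l1 and Bcl6, so none passed.

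In the fit without genotype, genes of the earlier stage at which Il2ra is normally high did not lie together on one side. Rag1, Rag2 and Dntt are in this list and in that of the CD4 and CD8 stage, so the lists are not separate. Of 16 measured genes of the stage of beta rearrangement and selection, 7 had a higher and 9 a lower mean, with a median of -0.0549, and unadjusted p-values below 0.05 were found for 4 lower members (Rag2, Cd28, Id3 and Spib) and 0 higher ones. Cd28, a costimulatory receptor, averaged 10.27 ± 0.906 in the expressing tumours and 11.46 ± 0.606 in the silent tumours. Id3, an inhibitor of E proteins, averaged 8.97 ± 1.06 against 10.2 ± 0.615, and Spib, a transcription factor of early thymocytes, 4.40 ± 1.11 against 6.32 ± 1.6 (SD, n = 5 and n = 9 for each). Their adjusted p were 0.323, 0.363 and 0.435 in limma's test. The list's median was -0.46 with genotype in the model, with 5 higher and 11 lower. That is near the median of the CD4 and CD8 stage list in the same fit (-0.43).

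Of 15 measured genes of the still earlier stages, 7 lay higher and 8 lower. Kit, the stem cell factor receptor of those stages, was at background in all 14 tumours, with a highest value of 3.76 in HIF1a+/- tumour 2. Cd44, an adhesion receptor lost as Il2ra peaks, averaged 7.99 ± 0.727 in the expressing tumours and 7.5 ± 0.937 in the silent tumours (SD, n = 5 and n = 9).

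Notch1, the receptor that commits cells to the T lineage, was high on both sides, at 12.98 in HIF1a+/- tumour 1 and at 13.77, 13.63, 14.54 and 13.85 in HIF1a+/+ tumours 1 to 4, against 11.4, 13.85 and 14.39 in the silent tumours. Several Notch targets had their highest values in Il2ra-expressing HIF1a+/+ tumours, with wide overlap. Hes1, a repressor induced by Notch, was at 3.87 in HIF1a+/- tumour 1 and at 9.02, 7.02, 6.42 and 7.10 in HIF1a+/+ tumours 1 to 4, against 2.02, 5.31 and 7.21 in the silent tumours. Dtx1, another target, was at 9.01 in HIF1a+/- tumour 1 and at 12.37, 10.12, 12.76 and 12.39 in HIF1a+/+ tumours 1 to 4, against 1.90, 10.86 and 11.36 in the silent tumours.

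For Dtx1, 3 of the 5 expressing tumours were thus above all silent tumours, while the lowest silent value came from HIF1a+/- tumour 5. The differences of Hes1 (1.97 ± 0.946) and Dtx1 (2.48 ± 1.78) did not pass (adjusted p = 0.509 and 0.659 in limma's test). They were 0.71 for Hes1 and 1.66 for Dtx1 with genotype in the model. Nrarp, a feedback inhibitor of Notch, was at 8.65 in HIF1a+/- tumour 1 and at 11.61, 6.10, 11.86 and 8.83 in HIF1a+/+ tumours 1 to 4, against 4.63, 8.93 and 9.99 in the silent tumours.

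Over the list of 19 measured Notch targets of T cell leukaemia, 13 lay higher and 6 lower with a median of 0.14, and unadjusted p-values below 0.05 were found for Igf1r among the higher members, with both means at background, and for Ccnd3 and Hey1 among the lower. The list's median was 0.00986 with genotype in the model. When 1 tumour was left out it ran from 0.000662 without HIF1a+/+ tumour 2, with 10 higher and 9 lower, to 0.482 without HIF1a+/- tumour 1, and it was 0.0145 without HIF1a+/- tumour 2, 0.0207 without HIF1a+/+ tumour 3 and 0.0648 without HIF1a+/+ tumour 1. Over 21 measured receptors, ligands and processing factors of the pathway, 11 lay higher and 10 lower, with Rbpj, Psen2 and Notch2 higher and Jag2 lower at an unadjusted p under 0.05. Rbpj, the DNA-binding partner of Notch, averaged 10.65 ± 0.215 in the expressing tumours and 10.17 ± 0.351 in the silent tumours (SD, n = 5 and n = 9; adjusted p = 0.372 in limma's test).

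The partners of Il2ra did not divide by side. Il2rb, the beta chain, was at 4.57 in HIF1a+/- tumour 1 and at 6.37, 4.12, 2.80 and 3.00 in HIF1a+/+ tumours 1 to 4, against 2.06, 2.17 and 5.90 in the silent tumours, so most tumours were at background. The common gamma chain was not measured by a probe set naming it alone. Of 21 measured genes of interleukin-2 and STAT5 signalling 13 lay higher and 8 lower, with a median of 0.0799. Socs2, a feedback inhibitor induced by STAT5, was the single member under an unadjusted p of 0.05, at 7.31 ± 0.96 in the expressing tumours and 8.17 ± 0.47 in the silent tumours (SD, n = 5 and n = 9; adjusted p = 0.449 in limma's test).

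Cish, another STAT5 target, was at background in all 14 tumours, and Stat5a averaged near its silent level, at a difference of -0.044. Il7r, the receptor alpha chain for interleukin-7, was at 12.92 in HIF1a+/- tumour 1 and at 11.67, 8.88, 9.12 and 11.77 in HIF1a+/+ tumours 1 to 4, against 6.67, 9.34 and 12.93 in the silent tumours. Both sides spanned much of the same range (adjusted p = 0.582 in limma's test). With genotype in the model, where no gene passed the adjusted threshold, the difference was 3.27 (unadjusted p = 0.0142 in limma's test). That fit separates side from genotype only through HIF1a+/- tumour 1 and HIF1a+/+ tumour 5, and the latter held the lowest silent value (6.67). The highest silent value (12.93) was that of HIF1a+/- tumour 5.

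Genes of regulatory and activated T cells, which also carry CD25, showed no shared direction. Foxp3, which defines regulatory T cells, was at background in every tumour, between 2.15 and 2.20 in the expressing tumours and between 2.13 and 2.23 in the silent tumours. Ctla4, an inhibitory receptor of the same cells, was at background in 4 of the 5 expressing tumours and at 6.52 in HIF1a+/+ tumour 2, against 1.97, 3.16 and 11.38 in the silent tumours. Of 19 measured genes of that list 8 lay higher and 11 lower with a median of -0.0124, and none passed an unadjusted p of 0.05 in either direction. The count was 13 higher and 6 lower with genotype in the model (median 0.129), and 12 higher and 7 lower without HIF1a+/+ tumour 3 or HIF1a+/+ tumour 4.

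Few members of the other lists of T cell biology had an unadjusted p below 0.05. Of 23 measured genes of the T cell receptor and its close signalling 11 lay higher and 12 lower. Cd6, a receptor that tunes that signal, averaged 9.40 ± 0.234 in the expressing tumours and 8.74 ± 0.565 in the silent tumours, and Cd247, the zeta chain, averaged 10.39 ± 0.277 against 10.88 ± 0.417 (SD, n = 5 and n = 9), neither past the threshold (adjusted p = 0.421 and 0.447 in limma's test). Of 14 mature T cell genes 8 lay higher and 6 lower. Klf2, which drives exit from the thymus, was above background in HIF1a+/+ tumours 1 and 2 alone, at 7.26 and 6.97, and its highest silent value was 4.37.

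Of 21 other cytokine receptors 10 lay higher and 11 lower, with Il21r alone under an unadjusted p of 0.05, at 7.20 ± 1.52 in the expressing tumours and 8.74 ± 0.738 in the silent tumours (SD, n = 5 and n = 9). Transcription factors of the T lineage had 16 higher and 13 lower of 29, chemokine and homing receptors 8 higher and 6 lower of 14, and the Bcl2 family 4 higher and 9 lower of 13. Wnt and Tcf/Lef genes had 10 higher and 3 lower of 13 (8 higher and 5 lower without HIF1a+/+ tumour 3), with Apc, an inhibitor of the pathway, at a difference of 0.58 (adjusted p = 0.37 in limma's test), and Lrp5 at background on both sides. Immediate early genes had 8 higher and 9 lower of 17, MHC class I genes 3 higher and 9 lower of 12, and ribosomal proteins 7 higher and 12 lower of 19, with 0, 0 and 1 members under an unadjusted p of 0.05.

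Most genes beside Il2ra on chromosome 2 had a somewhat higher mean in the expressing tumours, but none reached an unadjusted p of 0.05. Il15ra, which encodes the related receptor chain for interleukin-15 and is the next measured gene on one flank, was at 2.41 in HIF1a+/- tumour 1 and at 6.21, 3.32, 8.08 and 5.46 in HIF1a+/+ tumours 1 to 4, against 2.04, 3.59 and 5.77 in the silent tumours. Its difference of 1.52 did not pass (adjusted p = 0.565 in limma's test). Of the 8 measured genes listed as neighbours 7 lay higher and 1 lower, where 49.4% of all genes lay higher. The median was 0.219, and 0 in either direction had an unadjusted p under 0.05. With genotype in the model the median was 0.263, again with 7 higher and 1 lower. Without 1 tumour the median ran from 0.146 to 0.248, with 7 higher and 1 lower each time. The cause of this lean was not tested.

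Proliferation genes lay somewhat higher in the expressing tumours. Mki67, the marker of cycling cells, was at 13.38 in HIF1a+/- tumour 1 and at 13.05, 13.19, 13.22 and 13.16 in HIF1a+/+ tumours 1 to 4, against 12.03, 12.7 and 12.88 in the silent tumours. No silent tumour reached an expressing one. The difference of 0.60 ± 0.131 (SE) did not pass (adjusted p = 0.199 in limma's test) and was 0.76 with genotype in the model (unadjusted p = 0.000913).

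Of 39 measured cell cycle genes 28 lay higher and 11 lower, with a median of 0.17. With an unadjusted p below 0.05, 7 lay higher and 0 lower, against shares over all genes of 4.69% and 5.48%. Those of smallest p after Mki67 were Cenpe, a kinetochore motor, Bub1, a checkpoint kinase, Ccne1, the cyclin of S phase entry, Kif11, a spindle motor, and Rrm2, a subunit of ribonucleotide reductase. Cenpe averaged 9.35 ± 0.405 in the expressing tumours and 8.28 ± 0.776 in the silent tumours, and Ccne1 averaged 10.98 ± 0.225 against 10.05 ± 0.81 (SD, n = 5 and n = 9). Adjusted p for the 5 genes ran from 0.36 to 0.455 in limma's test.

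The cell cycle list leaned on HIF1a+/- tumour 5 on the silent side, whose list mean was 10.51 while the other silent tumours were between 11.26 and 11.6 and the expressing tumours between 11.3 and 11.59. Without it the median was 0.0646, with 23 members higher and 16 lower, of which 5 and 2 had an unadjusted p below 0.05. Without HIF1a+/+ tumour 3, 3 members lay higher at that threshold, and without HIF1a+/- tumour 1, 4 did. Which part this tumour's RNA plays in the list was not tested.

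Genes of ribosome making and other Myc targets also lay higher more often than lower. Of 30 measured, 24 lay higher and 6 lower, with a median of 0.22. At an unadjusted p below 0.05, 5 lay higher and 0 lower, against 4.69% and 5.48% of all genes. Nolc1, a chaperone of the nucleolus, was at 11.55 in HIF1a+/- tumour 1 and at 11.21, 11.26, 11.61 and 11.1 in HIF1a+/+ tumours 1 to 4, against 9.69, 10.54 and 11.01 in the silent tumours. The sides did not overlap (difference 0.83 ± 0.182, adjusted p = 0.213 in limma's test), and the other 2 probe sets of the gene gave differences of 0.92 and 1.14 with overlap.

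Rrp12, a factor for export of ribosomal subunits, averaged 7.76 ± 0.59 in the expressing tumours and 6.69 ± 0.629 in the silent tumours (SD, n = 5 and n = 9), and Ddx21, Cad and Gart were the others under that threshold. Without HIF1a+/- tumour 5 the list's median was 0.0848, with 21 higher and 9 lower, and without HIF1a+/+ tumour 1 it was 0.145. Myc itself was at 11.35 in HIF1a+/- tumour 1 and at 12.33, 12.39, 11.09 and 10.69 in HIF1a+/+ tumours 1 to 4, against 9.45, 12.02 and 12.72 in the silent tumours. The lowest silent value was again that of HIF1a+/- tumour 5, and the 2 sides overlapped throughout.

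The D cyclins and their inhibitors split. Ccnd3, the D cyclin that drives expansion of thymocytes after beta selection, was at 11.59 in HIF1a+/- tumour 1 and at 11.42, 11.5, 11.42 and 10.82 in HIF1a+/+ tumours 1 to 4, against 11.57, 12.05 and 12.61 in the silent tumours. A single expressing tumour, HIF1a+/- tumour 1, reached into the silent range. The difference of -0.72 ± 0.173 (SE) did not pass (adjusted p = 0.224 in limma's test) and was -0.58 with genotype in the model.

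Ccnd1 was at 8.70 in HIF1a+/- tumour 1 and at 7.90, 8.24, 6.84 and 6.79 in HIF1a+/+ tumours 1 to 4, against 6.13, 10.61 and 12.03 in the silent tumours (adjusted p = 0.38 in limma's test). Cdkn2a, the locus of the p16 and Arf tumour suppressors, was at 9.31 in HIF1a+/- tumour 1 and at 9.84, 2.17, 8.87 and 7.45 in HIF1a+/+ tumours 1 to 4, against 9.62, 9.81 and 10.66 in the silent tumours. HIF1a+/+ tumour 2 was at background, and 4 of the 5 expressing tumours lay below all 9 silent tumours. Cdkn2b, its neighbour, was at background in all 14 tumours. Of the 15 genes of this list 7 lay higher and 8 lower, and unadjusted p-values below 0.05 were reached by Cdk6 and Rbl1 among the higher members and by Ccnd3, Cdkn2b, Ccnd1 and Cdkn2a among the lower. Cdk6 was at background in all 14 tumours.

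Of 23 measured p53 targets, in tumours that all carried the same p53 mutation on both alleles, 10 lay higher and 13 lower, with a median of -0.0583. Perp, a junction protein, Btg2, an inhibitor of proliferation, and Pmaip1, which encodes Noxa, lay lower at an unadjusted p under 0.05, and Plk2 lay higher with both means at background. Perp was at 7.28 in HIF1a+/- tumour 1 and at 9.94, 7.85, 4.36 and 6.52 in HIF1a+/+ tumours 1 to 4, against 7.66, 9.81 and 10.34 in the silent tumours. Perp is also made by epithelium. It was lowest in HIF1a+/+ tumours 3 and 4, whose mean levels of thymic epithelial markers were low too (4.06 and 4.08). HIF1a+/+ tumour 5 had a low epithelial mean as well (4.71), but its Perp was at 9.39. In HIF1aKI/+ tumour 4 Perp was at 7.66 beside an epithelial mean of 6.01. Whether epithelial cells account for the Perp levels was not tested.

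Hif1a, the gene altered between the genotypes, was at 12.54 in HIF1a+/- tumour 1 and at 12.6, 13.04, 12.45 and 12.44 in HIF1a+/+ tumours 1 to 4, against 11.75, 12.25 and 12.85 in the silent tumours. Its difference was 0.26, and -0.12 with genotype in the model. Of 27 measured genes induced by hypoxia 18 lay higher and 9 lower with a median of 0.12, and none passed an unadjusted p of 0.05 in either direction. Without HIF1a+/- tumour 5 or without HIF1a+/+ tumour 2 it was 14 higher and 13 lower, with medians of 0.0151 and 0.0205, and without HIF1aKI/+ tumour 5 the median was 0.0348. Of 18 measured glycolysis genes 14 lay higher and 4 lower, with Aldoa and Pfkp higher at that threshold. No glycolysis gene was higher at that threshold without HIF1a+/- tumour 2 or 5, HIF1aKI/+ tumour 4, or HIF1a+/+ tumour 2, 3 or 4.

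**Figure D3:**
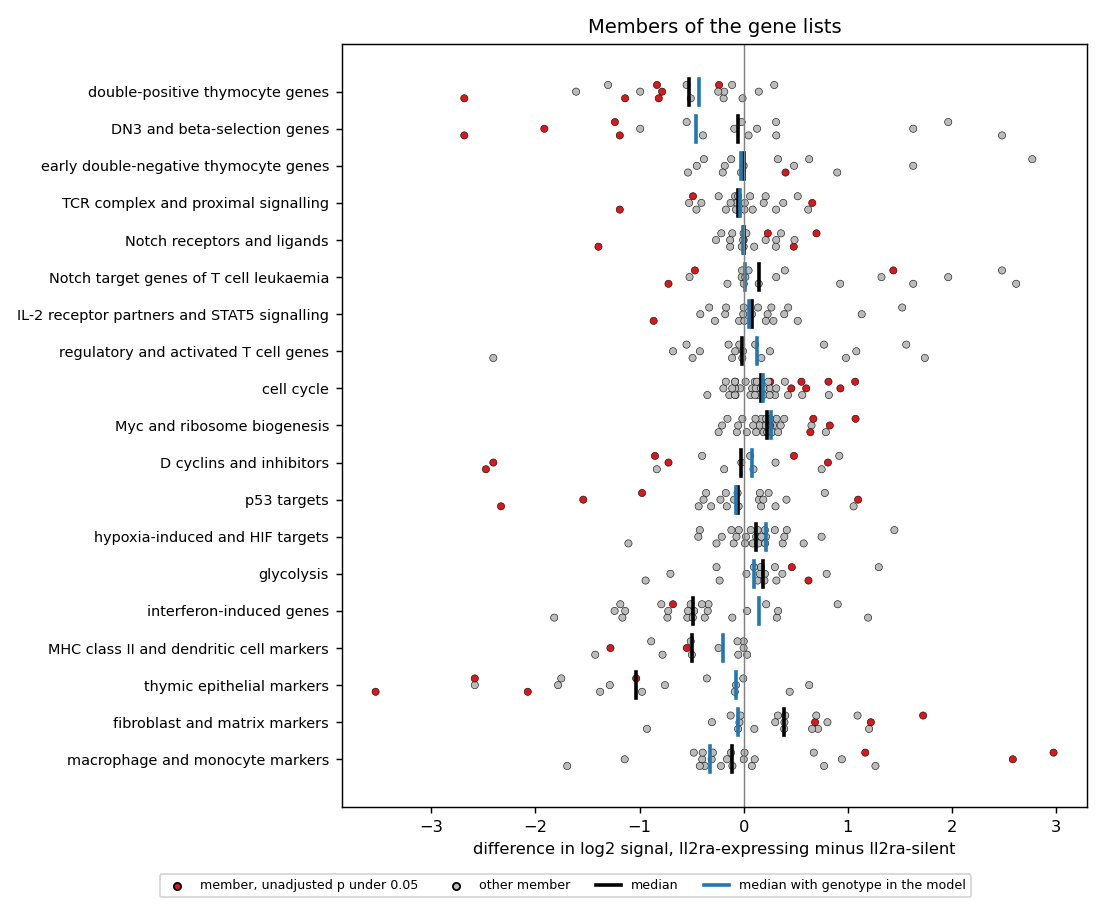
Difference in log2 signal, Il2ra-expressing minus Il2ra-silent, for each measured member of 19 gene lists, with members under an unadjusted p of 0.05 in red. Black bars mark the list medians, such as -0.53 for genes of the CD4 and CD8 stage and 0.17 for the cell cycle, and blue bars the medians with HIF1a genotype in the model, which for thymic epithelial markers moved to -0.0755 beside a main value of -1.03.

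Of the 15 genes per direction of smallest p among those with a log2 difference of at least 1, Pde7a and Cd8b1 alone passed the adjusted threshold. The genes were chosen on the same 14 tumours, so their values with genotype in the model are a description and lend the differences no further support. Of the 15 higher genes 7 had a silent mean at background, and 3 of these (Bag3, Igf1r and Aldh1a2) had both means there. Of the 15 lower genes 2, Mgmt and Speg, had an expressing mean at background.

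Among the higher genes well above background, B4galt1, a galactosyltransferase of the Golgi, did not overlap. It was at 12.57 in HIF1a+/- tumour 1 and at 12.09, 12.87, 12.6 and 12.45 in HIF1a+/+ tumours 1 to 4, against 10.72, 11.69 and 12.04 in the silent tumours. The difference was 1.01 ± 0.242 (SE; adjusted p = 0.224 in limma's test). Ptprj, the receptor phosphatase CD148, was at 6.77 in HIF1a+/- tumour 1 and at 5.13, 6.97, 5.55 and 6.28 in HIF1a+/+ tumours 1 to 4, against 3.25, 5.04 and 5.21 in the silent tumours, with 1 expressing tumour inside the silent range.

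Stk39, a stress kinase, was at 9.21 in HIF1a+/- tumour 1 and at 8.39, 9.61, 9.41 and 10.11 in HIF1a+/+ tumours 1 to 4, against 3.66, 6.95 and 8.44 in the silent tumours, again with 1 tumour overlapping. Mapre2, a protein of growing microtubule ends, Cebpb, a transcription factor, Trib1, a pseudokinase that brings C/EBP proteins to degradation, and Srcap, a chromatin remodeller, had differences of 1.40, 1.41, 1.75 and 1.18, each with overlap. Chst12, a sulphotransferase, and Hc, complement C5, had differences of 1.83 and 2.21, also with overlap. Inppl1, a lipid phosphatase, averaged 4.59 ± 0.668 in the expressing tumours and 3.59 ± 0.312 in the silent tumours, and Phykpl, a lyase, averaged 8.91 ± 0.447 against 7.91 ± 0.496 (SD, n = 5 and n = 9). The silent means of Chst12 (3.82), Hc (2.58) and Inppl1 were at background, so their differences are no measure of fold. Adjusted p for the 15 genes other than Pde7a ran up to 0.295 in limma's test.

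Among the lower genes, Nudt14, a nucleotide sugar hydrolase, was at 8.60 in HIF1a+/- tumour 1 and at 9.51, 8.79, 8.67 and 9.41 in HIF1a+/+ tumours 1 to 4, against 9.65, 10.07 and 10.57 in the silent tumours, without overlap (difference -1.11 ± 0.191, adjusted p = 0.083 in limma's test). Mgmt, the enzyme that removes alkyl groups from guanine in DNA, was at 2.77 in HIF1a+/- tumour 1 and at 4.11, 3.62, 3.15 and 2.81 in HIF1a+/+ tumours 1 to 4, against 4.33, 5.44 and 8.35 in the silent tumours. All 5 expressing tumours were thus at background for Mgmt while 8 of the 9 silent tumours lay above it, and the difference was -2.63 ± 0.556 (SE; adjusted p = 0.172 in limma's test).

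Ifitm10 was at 5.60 in HIF1a+/- tumour 1 and at 4.51, 5.18, 2.90 and 5.09 in HIF1a+/+ tumours 1 to 4, against 5.76, 7.69 and 9.71 in the silent tumours, with a difference of -3.08 ± 0.611 and no overlap. Znrd1, a subunit of RNA polymerase I, Plekhb2, a membrane traffic protein, Mad2l1bp, which binds the checkpoint protein Mad2, Ovca2, a hydrolase, and Zfp286, a zinc finger protein, did not overlap either, with differences of -1.38, -1.30, -1.10, -1.06 and -2.61. Art1 and Art4, of the family of cell surface ADP-ribosyltransferases, had differences of -1.86 and -1.98, with overlap. Kctd2, Speg and Tax1bp3 had differences of -1.07, -1.65 and -1.14, with overlap. Adjusted p for these genes other than Cd8b1 ran from 0.083 to 0.224 in limma's test.

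**Figure D4:**
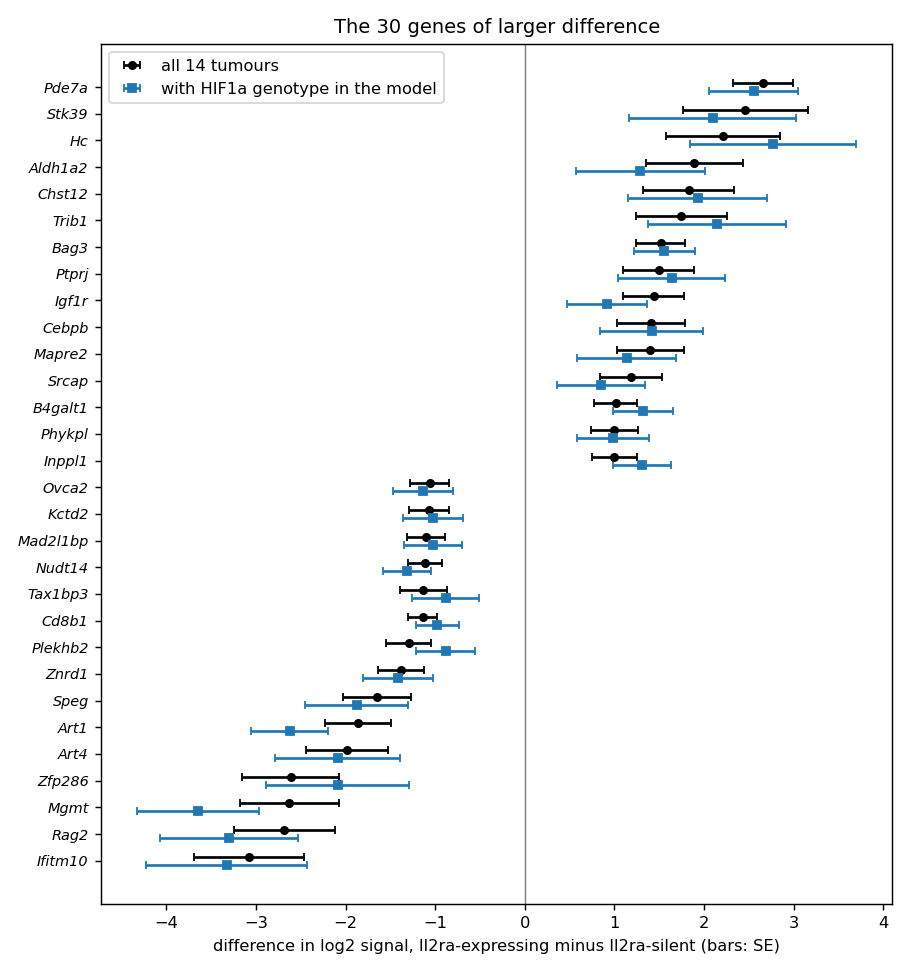
Difference in log2 signal, Il2ra-expressing minus Il2ra-silent, with its SE for the 30 genes of larger difference, in all 14 tumours (black circles) and with HIF1a genotype in the model (blue squares). The genes were chosen for their differences in these tumours, so the sign of the second fit was largely set by that choice, and the SEs are wider with genotype in the model.

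Markers of other cell types were uneven among the expressing tumours. Thymic epithelial markers lay lower there, with 15 of 17 measured genes lower and 2 higher and a median of -1.03. At an unadjusted p under 0.05, 4 lay lower (Krt17, Krt8, Krt5 and Fezf2) and 0 higher, against 5.48% and 4.69% of all genes. The mean level of the list was 4.06 to 6.46 in the expressing tumours and 4.71 to 7.38 in the silent tumours. Krt8, a keratin, was at 7.995 in HIF1a+/- tumour 1 and at 10.68, 9.94, 3.10 and 2.04 in HIF1a+/+ tumours 1 to 4, against 6.62, 10.56 and 11.65 in the silent tumours.

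HIF1a+/+ tumours 3 and 4, which had the highest Il2ra, were at background for Krt8 and had the lowest epithelial means of all 14, at 4.06 and 4.08. Without HIF1a+/+ tumour 3 or without HIF1a+/+ tumour 4, 1 epithelial marker lay lower at an unadjusted p under 0.05, and without HIF1a+/+ tumour 5 of the silent side 8 did. The median was -0.0755 with genotype in the model, with 6 higher and 11 lower. The part of epithelial content in the side differences was not tested.

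Of 13 measured genes of MHC class II and dendritic cells 11 lay lower and 2 higher, with a median of -0.50 and H2-Eb1 and H2-Ab1 lower at an unadjusted p under 0.05. Without HIF1a+/+ tumour 3 or without HIF1a+/+ tumour 4, 0 lay lower at that threshold, and without HIF1a+/+ tumour 2, 6 did. Of 25 measured interferon-induced genes 19 lay lower and 6 higher with a median of -0.49, of which Igtp alone had an unadjusted p below 0.05, and with genotype in the model the median turned to 0.14, with 14 higher and 11 lower. The mean of that list was 5.69 to 7.66 in the expressing tumours and 6.07 to 7.99 in the silent tumours, with wide overlap.

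Fibroblast and matrix markers lay higher, with 15 of 21 measured genes higher and a median of 0.39. Pdgfrb, Fn1 and Col1a1 were higher under an unadjusted p of 0.05, as were 4.69% of all genes. The median was -0.053 with genotype in the model and 0.153 without HIF1a+/+ tumour 1, and members under that p numbered 0 without HIF1a+/+ tumour 1 or HIF1a+/+ tumour 4 and 5 without HIF1a+/+ tumour 5. Of 24 macrophage markers 11 lay higher and 13 lower. Cd163, a scavenger receptor of tissue macrophages, was at background in HIF1a+/- tumour 1 and HIF1a+/+ tumour 1 and at 8.76, 5.36 and 7.28 in HIF1a+/+ tumours 2, 3 and 4, against a range of 2.05 to 2.25 in the silent tumours. Marco, another scavenger receptor, was above background in HIF1a+/+ tumours 2 and 3 alone, at 9.68 and 7.32. With Vsig4 these were the macrophage markers under an unadjusted p of 0.05, and both means of Vsig4 were at background. The list's median was -0.115, and -0.33 with 5 higher and 19 lower when genotype was in the model. Without HIF1a+/+ tumour 5 it was 0.00587, with 13 higher and 11 lower.

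Few other cell type markers reached an unadjusted p of 0.05. Endothelial markers had 5 members higher and 12 lower of 17, with 3 higher and 14 lower when genotype was in the model. Adipocyte markers had 6 higher and 2 lower of 8 with a median of 0.58, and the lean turned to 1 higher and 7 lower with a median of -0.62 when genotype was in the model. Neither list had a member under that p in the fit without genotype. B cell markers had 5 higher and 9 lower of 14, with Blnk, an adaptor of antigen receptor signalling, at 6.21 ± 1.11 in the expressing tumours and 7.46 ± 0.442 in the silent tumours (SD, n = 5 and n = 9; adjusted p = 0.317 in limma's test). NK and cytotoxic markers had 9 higher and 5 lower of 14, with the chemokine Ccl5 lower and Cd160 higher at an unadjusted p below 0.05, and erythroid markers 2 higher and 6 lower of 8, with Epor lower and Gata1 higher, the last with both means at background.

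**Figure D5:**
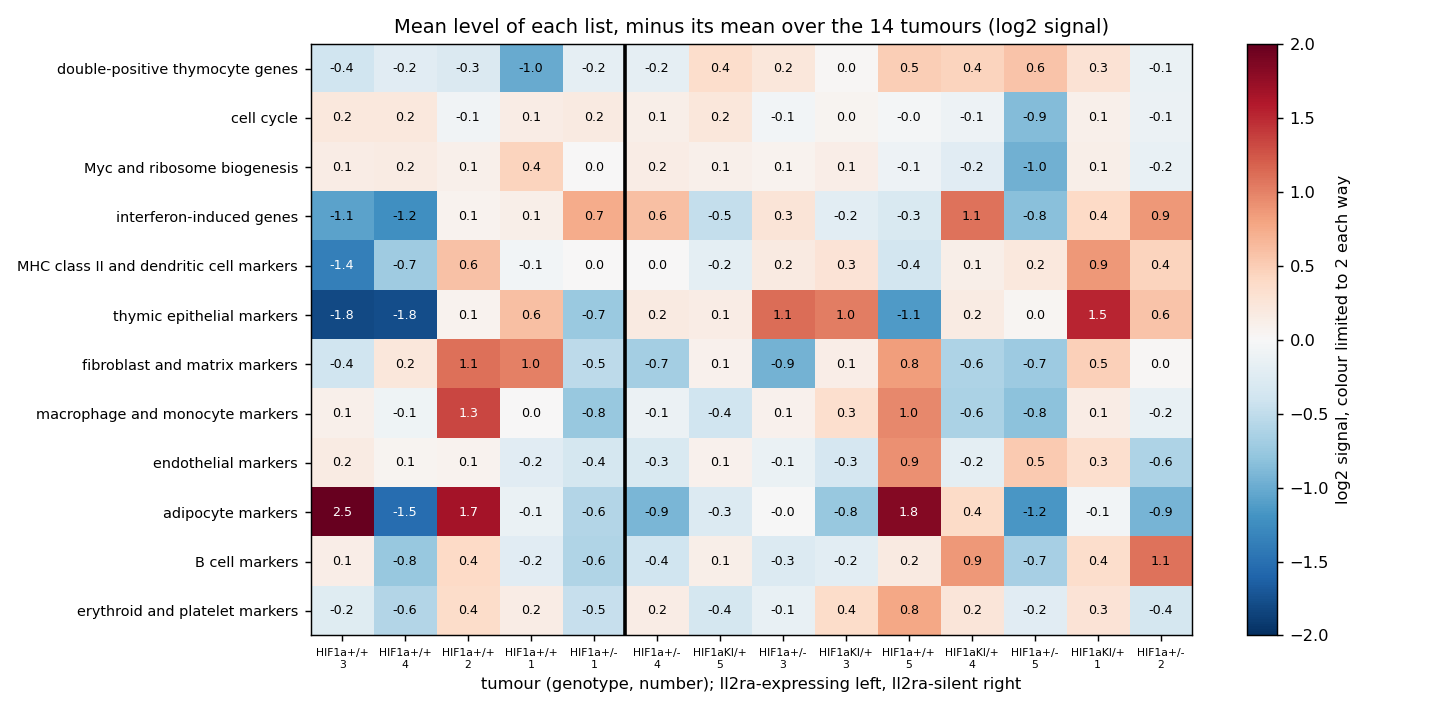
Mean log2 signal of each list in each tumour after subtracting its mean over the 14 tumours, Il2ra-expressing tumours left and Il2ra-silent tumours right, red above and blue below that mean. The list of the CD4 and CD8 stage is below its mean in all 5 expressing tumours and also in silent HIF1a+/- tumours 2 and 4. Thymic epithelial markers are lowest in HIF1a+/+ tumours 3 and 4, and cell cycle and Myc lists are lowest in HIF1a+/- tumour 5.

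Whether the side difference itself differed between HIF1a+/- and HIF1a+/+ tumours was tested with an interaction term, and 49 of 10253 genes (0.478%) passed an adjusted p of 0.05 in limma's test. Of these 46 had a mean at background over the 14 tumours. The term rests on the single expressing HIF1a+/- tumour and the single silent HIF1a+/+ tumour, so a value of 1 tumour can pass for an interaction. None of Pde7a, Cd8b1, Mien1 and Rag2 was among them, each with an adjusted p of 0.9998 for the interaction in limma's test. With genes at background left out, an alternative chosen after seeing the data, 1 gene passed.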

How the data were processed

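Per the labels, total RNA (100 ng) of 14 thymic lymphomas was amplified, labelled with biotin and put on 1 Affymetrix array each. The deposited values are log2 probe set signals, made with GCRMA and Partek per the submitters' processing notes, which name no version. Build and software versions are not given in the sources used here. Scanner files were not used. GCRMA draws probe sets without signal into a narrow low mode (peak about 2.1), so differences among such values mean little and folds against it depend on the background step.

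Of 18264 probe sets, 16602 named 1 gene, 603 several and 1059 none in the platform annotation, with symbols updated to RefSeq. The probe set of highest mean stood for each of 10254 genes. The 2 sides were set by Il2ra, and 10253 genes were tested without it by limma 3.58.1 in R 4.3.3 (lmFit, eBayes, two-sided, Benjamini-Hochberg over all genes, adjusted p 0.05), with no filter. The fit was tested on simulated data. Named genes were fixed genes of the thymocyte, Notch and interleukin-2 pathways, the 15 of smallest unadjusted p per direction with a log2 difference of at least 1, and up to 6 members of smallest p per list. The members of the sides and the 34 lists were chosen with earlier results of these data known. Alternatives were trend and robust moderation, genotype in the model, fewer genotypes, a replicate block, a filter on level, 2 other normalizations, array weights, other uses of probe sets, another threshold and leaving out each tumour.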

Additional observations from a re-analysis of the deposited data

Results flagged for a closer look

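Among 54 named genes on 2 sides (108 groups), 13 groups held a tumour whose gap to the next one was large for the group's range by Dixon's test at the 95% level, and chance flags about 1 in 20 groups. In most of them the values were at background.

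On the expressing side, Ctla4 stood high at 6.52 in HIF1a+/+ tumour 2, where the next tumour was at 3.03, and Hif1a at 13.04 in the same tumour, where the next was at 12.6. Kit was highest at 2.27 in HIF1a+/+ tumour 3 and Cish at 2.17 in HIF1a+/+ tumour 2, and Foxp3 was lowest at 2.15 in HIF1a+/+ tumour 1, all at background.

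On the silent side, Notch3 was low at 6.78 in HIF1a+/- tumour 2, where the next was at 9.74, and Myc was low at 9.45 in HIF1a+/- tumour 5, where the next was at 11.28. Hc was highest at 4.80 in HIF1a+/- tumour 2, where the next was at 3.08. The remaining flags were at background, with Pde7a highest at 3.60 and Igf1r at 2.42 in HIF1aKI/+ tumour 3, Kit highest at 3.76 in HIF1a+/- tumour 2, and in HIF1aKI/+ tumour 1 Cish highest at 3.90 and Foxp3 lowest at 2.13.

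The difference between the sides differed between HIF1a+/- and HIF1a+/+ tumours for 49 genes by the interaction term in limma, a count that rests on 1 tumour of each genotype on one of the sides.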

How the results depend on the processing

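Against 3 genes called between the sides, the counts were 3 with trend and robust moderation, 2 with quantile normalization, 2 with array weights, 1 with array medians centred, 5 with the mean of probe sets, 1 with every probe set singly (18262 tested) and 8 at an adjusted p of 0.1. The count was 0 with genotype in the model, 0 in HIF1a+/- and HIF1a+/+ tumours alone with genotype, 0 with the filter on level (7331 genes, Pde7a removed), and 95 in HIF1a+/+ tumours alone, where the silent side is 1 tumour. Leaving out 1 tumour gave 0 to 5, with 0 without HIF1a+/- tumour 5, HIF1aKI/+ tumour 1, 4 or 5, or HIF1a+/+ tumour 1, 2, 3 or 5. The labels name no pairing of same-numbered tumours of different genotypes. Over 13 such pairs the correlation of their deviations averaged -0.00595, with 1 pair over 0.1, which cannot show that they share nothing. The replicate block gave 26 genes. The causes were not tested.

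The 49 interaction genes became 62 with trend and robust moderation, 1 with the filter on level and 43 to 67 without 1 tumour, all settings chosen after seeing the data. Over all alternatives Pde7a, Cd8b1 and Mien1 kept their direction wherever tested. These genes were called on the same tumours with sides that did not overlap, so their direction was largely set by that choice.

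Signs were followed under every setting for 54 genes (those called, of larger difference or fixed by name). With genotype in the model, those of them that changed sign were far from the threshold. Of all 189 named genes and list members of smallest p, 16 changed sign with genotype in the model. The 16 include genes outside the 54, such as Stab1 (-0.25) and Stat5b (0.014). Among the 54 genes, those that changed sign with genotype in the model, in all tumours or without HIF1aKI/+, were Notch1 (-0.032), Notch3 (-0.44), Ptcra (-0.88), Cd4 (0.21), Cd3e (-0.15), Stat5a (0.11) and Hif1a (-0.12). In HIF1a+/+ tumours alone they were Notch3 (-0.13), Ptcra (-0.79), Kit (0.050), Cd44 (-0.15), Cd3e (-0.59), Stat5a (0.024), Cish (0.024), Ctla4 (1.41) and Hif1a (-0.22). The replicate block turned Cd4 (0.25) and Foxp3 (0.0072), centring turned Foxp3 (0.0041), array weights turned Ptcra (-0.18) and Cd4 (0.18), and the mean of probe sets turned Cd4 (0.13). Without 1 tumour the range crossed 0 for Notch1 (-0.056 to 0.40), Notch3 (-0.18 to 0.83), Ptcra (-0.35 to 0.57), Kit (-0.22 to 0.00059), Cd3e (-0.094 to 0.085), Cd4 (-0.52 to 0.31), Stat5a (-0.12 to 0.073), Foxp3 (-0.016 to 0.0041) and Myc (-0.44 to 0.065).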
